A study of Rattus norvegicus with 36 samples.

Results

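The comparison described here is the last 10-fold step of a dose series, the livers of rats given 485 mg/kg PBDE47 set against those of rats given 48.5 mg/kg. Its arrays were taken by treatment label, while the comparison itself was chosen with earlier results of these data known. From each dose 6 arrays, 12 of the 36 arrays of the series, entered the test, and the vehicle arrays did not. Of the 31099 probe sets, 31042 (all but 57 array control probe sets) were tested. PBDE47 (2,2',4,4'-tetrabromodiphenyl ether) is a brominated flame retardant. Male Harlan Sprague Dawley rats, 7 weeks old at the start, were gavaged with PBDE47 in corn oil (5 ml/kg) on 5 consecutive days, at 48.5 or 485 mg/kg in the groups compared, and with corn oil alone (vehicle) or at 0.0485, 0.485 or 4.85 mg/kg in the other groups. The means of vehicle and 4.85 mg/kg are given below beside some genes without a test against them, and these 4 groups enter tests only where a fit of 18 or of all 36 arrays is named. All groups had the same diet and gavage, and RNA of the left liver lobe was taken 1 day after the last dose and hybridised to Affymetrix rat expression arrays. The labels number the 6 arrays of a dose as replicates without saying that each is a rat of its own, so p values measure the spread between these samples.

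The liver handles fat-soluble foreign compounds through ligand-sensing transcription factors. The aryl hydrocarbon receptor (AhR) drives cytochrome P450 genes of the CYP1 family, the constitutive androstane receptor (CAR) and pregnane X receptor (PXR) drive the CYP2B and CYP3A families with conjugating enzymes and efflux pumps, and NRF2, a factor released when reactive molecules modify its partner KEAP1, drives glutathione and quinone-reducing enzymes. Conjugation to glutathione, glucuronic acid or sulfate then makes the products soluble enough to be pumped out of the cell.

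Between 48.5 and 485 mg/kg, 880 probe sets differed, 2.83% of those tested, at an adjusted p below 0.05 (limma, Benjamini-Hochberg adjustment over 31042 probe sets). Of these, 453 were higher at 485 mg/kg (1.46%) and 427 lower (1.38%). The changes were mostly small: the median size among the called probe sets was 0.40 on the log2 scale, and 24 rises and 15 falls reached 2-fold. The called probe sets covered 664 genes, 362 higher and 302 lower, and 125 of them carried no gene name here. In 799 probe sets (2.57%) the 6 values of one dose all lay outside the range of the other dose, and 580 of these were called. Such a lack of overlap was required of the 15 largest rises and 15 largest falls named below, so for them it is no separate result. Without 485 mg/kg replicate 3, 567 probe sets were called, of which 249 were lower. Fitting all 36 arrays together called 1509, and a test against a minimum change of 1.5-fold called 11.

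Values below are log2 RMA values, a log2 scale on which the 12 arrays had medians of 5.31 to 5.36, and a difference is the mean at 485 minus the mean at 48.5 mg/kg with its standard error (SE) and n = 6 arrays per dose. No detection call was made, so a difference that starts or ends below 5.31 can be larger than stated. Arrays of the same dose correlated at 0.991 to 0.995 across probe sets and arrays of different doses at 0.991 to 0.994, and the first principal component, with 21.1% of the variance, separated the doses. RNA degradation shows as a gap between probes at the 3' and the 5' end of a control gene, and that gap gave exact two-sided permutation p values of 0.264 (Gapdh), 0.652 (Actb) and 0.431 (hexokinase) between the doses. Where several probe sets represent a gene, the one with the highest mean over the 12 arrays stands for it. Of 14217 genes so represented, 598 (4.21%) were called, 342 higher (2.41%) and 256 lower (1.8%), with a median difference of -0.01, and these are the values against which the gene lists below are read.

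**Figure D1:**
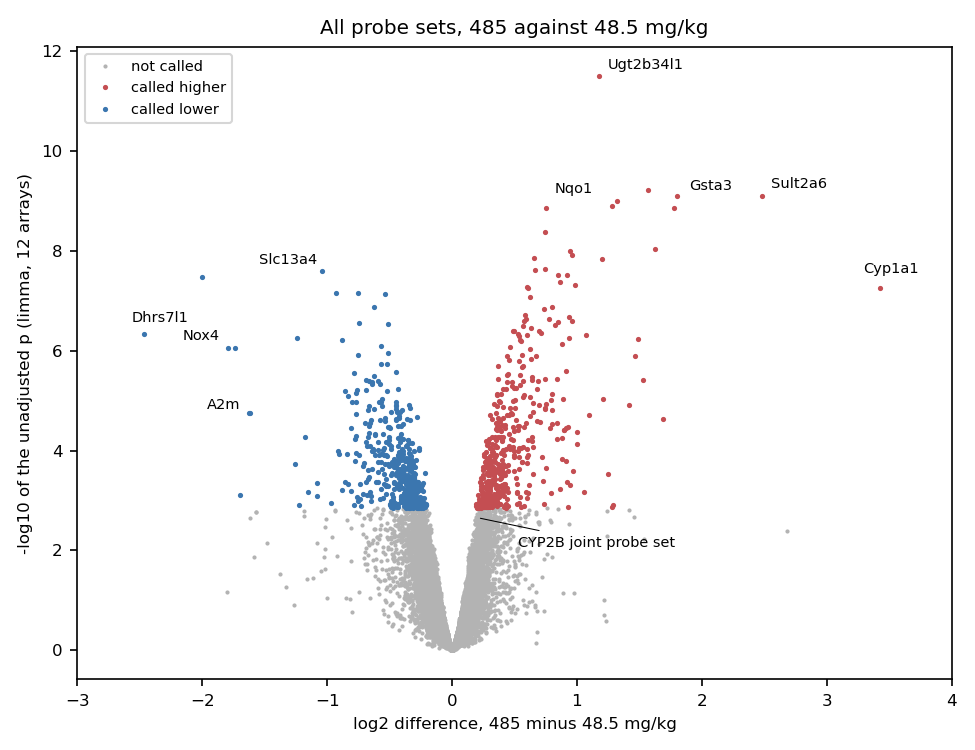
Each point is 1 of the 31042 probe sets, with the log2 difference between 485 and 48.5 mg/kg on the x axis and the negative log10 of the unadjusted limma p on the y axis. Red points are the 453 called higher, blue points the 427 called lower, grey points were not called; Cyp1a1 lies farthest to the right, Dhrs7l1 farthest to the left, and the CYP2B joint probe set just below the called region.

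The largest rise was that of Cyp1a1, the cytochrome P450 most used as a reporter of AhR activity. Its lowest, median and highest values were 6.23, 7.56 and 8.24 at 48.5 mg/kg and 9.36, 11.01 and 11.55 at 485 mg/kg. Every array of the higher dose lay above every array of the lower dose, and 485 mg/kg replicate 1, the lowest, stood apart from the other 5 (10.91 to 11.55). The difference was 3.42 ± 0.35 (SE), a 10.7-fold rise with adjusted p = 6.84e-05 (limma). Means in vehicle and at 4.85 mg/kg were 4.82 and 5.21, both below the array median. The other CYP1 enzymes did not pass the test. Cyp1a2, abundant in liver without any inducer, differed by 0.10 ± 0.08 (95% interval -0.08 to 0.28, adjusted p = 0.644), from medians of 13.52 and 13.63. Cyp1b1 differed by 0.02 ± 0.07 (-0.12 to 0.17, adjusted p = 0.924) at medians of 5.18 and 5.27, below the array median. Of 9 measured genes listed as AhR targets or AhR partners, 2 rose, Cyp1a1 and the quinone reductase Nqo1, and the median difference was 0.06. Tiparp (-0.20), Ahrr (0.06), Aldh3a1 (-0.07), Ahr (0.01) and Arnt (0.13) were not called.

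CAR and PXR targets rose unevenly over this step. The probe set that Cyp2b1 and Cyp2b2, the classical CAR targets of rat liver, share on this array read 14.18, 14.25 and 14.32 (lowest, median, highest) at 48.5 mg/kg and 14.35, 14.44 and 14.55 at 485 mg/kg. The ranges did not touch, but the difference of 0.19 ± 0.05 did not pass the test (95% interval 0.08 to 0.31, adjusted p = 0.0625). It was called with a filter on dim probe sets, with the ordinary test, with trend and robust moderation and with array weights. Its means in vehicle and at 4.85 mg/kg were 10.79 and 12.97, and the highest value of any probe set on the arrays was about 15.05. In a test chosen after seeing the data, over the 18 arrays of 4.85, 48.5 and 485 mg/kg, this was the only probe set of 31042 whose last step differed from the step before it, by -1.08 ± 0.11 (adjusted p = 0.000152). That step had been 1.28. In the 36-array version of that test its adjusted p was 0.183 and 16 other probe sets were called. With 1 of the 18 arrays left out the count was 1 to 9, and above 1 without 4.85 mg/kg replicate 3 (2), 48.5 mg/kg replicate 3 (4) or 5 (2), or 485 mg/kg replicate 2 (7), 5 (9) or 6 (4).

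Cyp3a23-3a1, the main PXR-responsive P450, rose by 0.36 ± 0.06 (1.29-fold, adjusted p = 0.00275), from 14.06, 14.08 and 14.22 to 14.36, 14.48 and 14.61. All 6 arrays of 485 mg/kg were above all 6 of 48.5 mg/kg. Ces2c, a liver carboxylesterase, went from 10.08, 10.19 and 10.50 to 11.30, 11.89 and 12.27, a rise of 1.63 ± 0.14 (3.09-fold, adjusted p = 2.81e-05). Aldh1a1, a retinal dehydrogenase, rose by 0.70 ± 0.08 from a median of 13.14 to one of 13.83. Cyp2a1, a testosterone hydroxylase, rose by 0.74 ± 0.12, from 10.88, 11.28 and 11.66 to 11.78, 12.03 and 12.34, with means of 10.82 in vehicle and 11.11 at 4.85 mg/kg. Of 20 measured genes listed as CAR and PXR targets, 10 rose and 1 fell, with a median difference of 0.37. Lists share members: of these 10, Ephx1 is counted again in the NRF2 list and Gstm1 among the glutathione S-transferases. Cyp3a18 rose by 0.44 (limma adjusted p = 0.0285). That call was lost in 6 of the 12 fits that left out 1 array: without 48.5 mg/kg replicate 2, 5 or 6 or 485 mg/kg replicate 2, 3 or 5 (adjusted p up to 0.0738). The one that fell was Cyp2b3, a CYP2B member with a probe set of its own, at -0.23 (limma adjusted p = 0.0316). Whether Cyp2b3 responds to CAR was not tested. Its call was lost without any 1 of 48.5 mg/kg replicates 1, 2, 4 and 6 and 485 mg/kg replicates 1, 2 and 3 (adjusted p up to 0.0802). Among the rest, Cyp3a2 (0.07), Cyp2c6v1 (0.07), Ugt2b1 (0.20, adjusted p = 0.0942, called with trend and robust moderation) and Por, the electron donor of all microsomal P450s (0.78, adjusted p = 0.066), were not called. P450 and transferase genes of a family are near-identical in sequence in places, so that probe sets named for one can also bind RNA of another.

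NRF2 targets and glutathione genes include the enzymes that make, use and recycle glutathione. Of 25 measured genes of the list, 16 rose and 0 fell, with a median difference of 0.54, and 16 were called in each of the 12 fits that left out 1 array. Nqo1, which reduces quinones, read 8.40, 8.69 and 9.05 at 48.5 mg/kg and 9.89 to 10.24 with a mean of 10.02 at 485 mg/kg. The groups were far apart, with a difference of 1.32 ± 0.10 (2.50-fold, adjusted p = 5.37e-06), and the vehicle mean was 7.29. Gsr, which regenerates reduced glutathione, rose by 0.96 ± 0.09, from 9.46, 9.66 and 10.07 to 10.56, 10.64 and 10.75. Akr7a3, an aldehyde reductase, rose by 0.92 ± 0.09, from 11.90, 11.95 and 12.31 to 12.71, 12.97 and 13.12. Me1, the malic enzyme that supplies NADPH, rose by 0.88 ± 0.11, from 9.81, 10.10 and 10.30 to 10.56, 10.96 and 11.19. In each of these 3 genes the lowest array of 485 mg/kg was above the highest of 48.5 mg/kg. The catalytic and modifier subunits of the enzyme that makes the glutathione precursor, Gclc and Gclm, rose by 0.60 and 0.49, thioredoxin reductase Txnrd1 by 0.57, sulfiredoxin Srxn1 by 0.70 and the pentose phosphate enzymes Tkt and Pgd by 0.80 and 0.50. The aldehyde oxidase Aox1 rose by 0.74, and Mgst2, Cbr1 and Ephx1 by 0.37 to 0.54. Gpx2 rose by 0.80 at means of 4.05 and 4.85, below the array median. The list's other members were not called: Slc7a11, the cystine importer, had an adjusted p of 0.997, Osgin1 stood at -0.08, Akr1b8 at 0.05, Cbr3 at 0.10, Taldo1 at 0.15, Abcc2 at 0.27 and Abcc4 at 0.54 (adjusted p = 0.185). The transcripts of NRF2 itself (Nfe2l2, -0.11) and of Keap1 (0.20) were not called either.

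Promoters were read for the 15 largest rises among called genes whose groups do not overlap, to show the DNA in front of them. The windows are the 250 bases before the RefSeq start on GRCr8, and 3 motifs were searched on both strands: GCGTG, the core bound by AhR with its partner; TGACNNNGC, the antioxidant response core bound by NRF2 with small MAF proteins; and TATAAA. They overlap nowhere in the windows printed. Printed are Nqo1, the reference NRF2 gene, and the 3 of the 15 largest rises whose window holds the antioxidant core, Gsta3, Ttc39a and Spc25, 5' to 3' on the strand of the gene with every match in capitals. Nqo1 spans chr19:52220268-52220517 (minus strand), Gsta3 chr9:31154739-31154988 (plus), Ttc39a chr5:129394044-129394293 (plus) and Spc25 chr3:74396719-74396968 (minus).
Nqo1: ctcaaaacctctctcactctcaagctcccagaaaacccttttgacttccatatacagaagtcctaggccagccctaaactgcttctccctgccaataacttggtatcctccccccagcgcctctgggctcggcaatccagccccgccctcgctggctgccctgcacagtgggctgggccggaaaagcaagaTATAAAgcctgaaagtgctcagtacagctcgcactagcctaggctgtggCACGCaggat
Gsta3: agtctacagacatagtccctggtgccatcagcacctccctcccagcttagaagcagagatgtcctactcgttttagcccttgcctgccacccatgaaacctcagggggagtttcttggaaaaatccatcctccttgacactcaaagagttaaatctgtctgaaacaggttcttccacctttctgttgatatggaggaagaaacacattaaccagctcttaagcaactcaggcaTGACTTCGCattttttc
Ttc39a: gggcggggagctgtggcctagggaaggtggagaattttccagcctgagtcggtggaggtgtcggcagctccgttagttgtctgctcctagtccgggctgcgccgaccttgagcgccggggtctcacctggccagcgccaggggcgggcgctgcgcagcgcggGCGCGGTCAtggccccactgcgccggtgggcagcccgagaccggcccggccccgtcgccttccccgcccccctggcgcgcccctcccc
Spc25: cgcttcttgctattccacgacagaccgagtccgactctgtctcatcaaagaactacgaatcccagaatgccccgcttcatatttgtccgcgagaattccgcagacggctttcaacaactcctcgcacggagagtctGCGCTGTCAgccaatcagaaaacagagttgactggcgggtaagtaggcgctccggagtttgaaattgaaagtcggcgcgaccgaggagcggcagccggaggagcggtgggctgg
In Nqo1 the capitals mark a TATAAA starting 59 bases before the start and a GCGTG read on the opposite strand 10 bases before it. The Nqo1 window held no antioxidant core. In Gsta3 they mark an antioxidant core 17 bases before the start, on the gene's strand, and in Ttc39a and Spc25 one on the opposite strand, 88 and 114 bases before it. Of the 15 largest rises 12 had a window, and 5 of these held GCGTG, 3 the antioxidant core and 3 TATAAA. Cyp1a1, the largest rise, had no window, nor did Abcc3 and Zdhhc2, so they are not in these counts. Of the 14 windows among the 15 largest falls, chosen the same way, 3, 1 and 5 held these motifs, in the same order. Over all 33469 windows of the table the shares were 25.9%, 10.1% and 12.9%. A match describes letters in the window and is not a measured binding site.

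Among glutathione S-transferases (GSTs), which attach glutathione to reactive compounds, 9 of 17 measured rose and 0 fell, with a median of 0.30. The alpha-class Gsta3 rose most, from 8.57, 9.10 and 9.58 to 10.75, 10.94 and 11.09. No array of the lower dose came within 1 unit of the higher dose, and the difference was 1.80 ± 0.13 (3.48-fold, adjusted p = 5.37e-06), on top of means of 7.13 in vehicle and 7.87 at 4.85 mg/kg. Gstt3, of the theta class, rose by 1.20 ± 0.11, from 11.28, 11.45 and 11.82 to 12.40, 12.72 and 12.95. Gsta4, which handles lipid peroxidation aldehydes, rose by 0.83 ± 0.10 and Gstm4 by 0.66 ± 0.06, both without overlap of the groups. Gsta1, Gstm1, Gstp1, Gstt1 and Gstk1 rose by 0.30 to 0.51, the call of Gstp1 (0.30) being lost in 7 of the 12 fits that left out 1 array: without 48.5 mg/kg replicates 1 to 4 or 485 mg/kg replicates 3 to 5 (adjusted p up to 0.0801). The 8 not called lay between -0.20 (Gstm3) and 0.18 (Gstm2), so neither the mu class nor the theta class moved as a block: Gstm5 stood at -0.09 and Gstt2 at 0.01.

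Conjugation with glucuronic acid and sulfate changed in both directions. Of 18 measured genes, 4 rose and 3 fell, with a median of 0.15. The sulfotransferase Sult2a6, of a family that sulfates steroids and bile acids, was the second largest rise among the called genes. It read 8.31, 9.14 and 9.34 at 48.5 mg/kg and 10.91, 11.40 and 11.87 at 485 mg/kg, a difference of 2.48 ± 0.19 (5.60-fold, adjusted p = 5.37e-06). All 6 arrays of the highest dose stood above all 6 of 48.5 mg/kg, and the means were 9.20 in vehicle and 8.97 at 4.85 mg/kg. Its relatives Sult2a1 (0.04, adjusted p = 0.812, at means of 2.92 and 2.96) and Sult2a2 (0.46, adjusted p = 0.0664, at means of 3.02 and 3.47) were not called. Both lay below the array median at both doses. Ugt2b34l1, annotated as a relative of the UGT2B glucuronosyltransferases, had the smallest adjusted p of all probe sets. It rose by 1.18 ± 0.06 (2.26-fold, adjusted p = 9.66e-08), from 6.07, 6.16 and 6.37 to 7.28, 7.37 and 7.45, with narrow groups that did not overlap. Ugdh, which makes the UDP-glucuronic acid these enzymes use, rose by 0.66 ± 0.06, from 11.42, 11.63 and 11.74 to 12.19, 12.27 and 12.33, Ugt2a1 by 0.64 ± 0.09 and Ugt2b10 by 0.35. Falls were found on the sulfate side. Sult1c2, which sulfates phenols, went from 8.37, 8.69 and 9.28 to 7.10, 7.51 and 7.98, a fall by 1.24 ± 0.15 on the log2 scale without overlap of the groups. Slc13a4, a sodium-sulfate cotransporter, fell by 1.04 ± 0.10 from 9.64, 9.86 and 9.98 to 8.40, 8.84 and 9.05. Papss2, which makes the active sulfate donor, fell by 0.42 (adjusted p = 0.0079) and Sult1a1 by 0.37 (adjusted p = 0.0495), a call kept only without 48.5 mg/kg replicate 4 or 485 mg/kg replicate 4 or 6 (adjusted p 0.0183 to 0.115 over the 12 fits that left out 1 array).

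Efflux and uptake transporters also moved both ways. Of 22 measured, 2 rose and 4 fell, with a median of -0.09. Abcc3 (MRP3), which pumps conjugates from hepatocytes back to blood, had means of 5.27 in vehicle and 6.34 at 4.85 mg/kg. It read 8.22, 8.53 and 8.77 at 48.5 mg/kg and 9.63, 9.82 and 10.05 at 485 mg/kg, a difference of 1.28 ± 0.10 (2.43-fold, adjusted p = 5.37e-06). Abcb1a, a P-glycoprotein, rose by 0.74 ± 0.12 and its other probe set by 0.89. The 4 that fell were Slc22a8, an organic anion transporter whose call was lost in 4 of the 12 fits that left out 1 array (without 48.5 mg/kg replicate 2 or 4 or 485 mg/kg replicate 2 or 3, adjusted p up to 0.0577), and 3 pumps that export lipids into bile. Abcb4, the phospholipid exporter of bile, fell by 0.64 ± 0.09, from 8.46, 8.66 and 8.79 to 7.66, 8.03 and 8.29 without overlap. Abcg8, a subunit of the sterol exporter, had values of 4.95, 6.20 and 6.52 at 48.5 mg/kg and 4.42, 4.51 and 5.48 at 485 mg/kg. The groups overlapped because 48.5 mg/kg replicate 5 stood more than 1 unit below its group, and the difference was -1.25 ± 0.26 (adjusted p = 0.0145), not called with the ordinary test or with trend and robust moderation. Its partner Abcg5 fell by 1.08 ± 0.26 (adjusted p = 0.0363), but that call was lost when any 1 of 8 arrays was left out (adjusted p 0.0122 to 0.0806): all of 48.5 mg/kg but replicate 5, and 485 mg/kg replicates 1, 2 and 3. The same replicate 5 of 48.5 mg/kg was low for Abcg5, at 7.28 against 8.16 to 8.65 in the rest of its group.

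**Figure D2:**
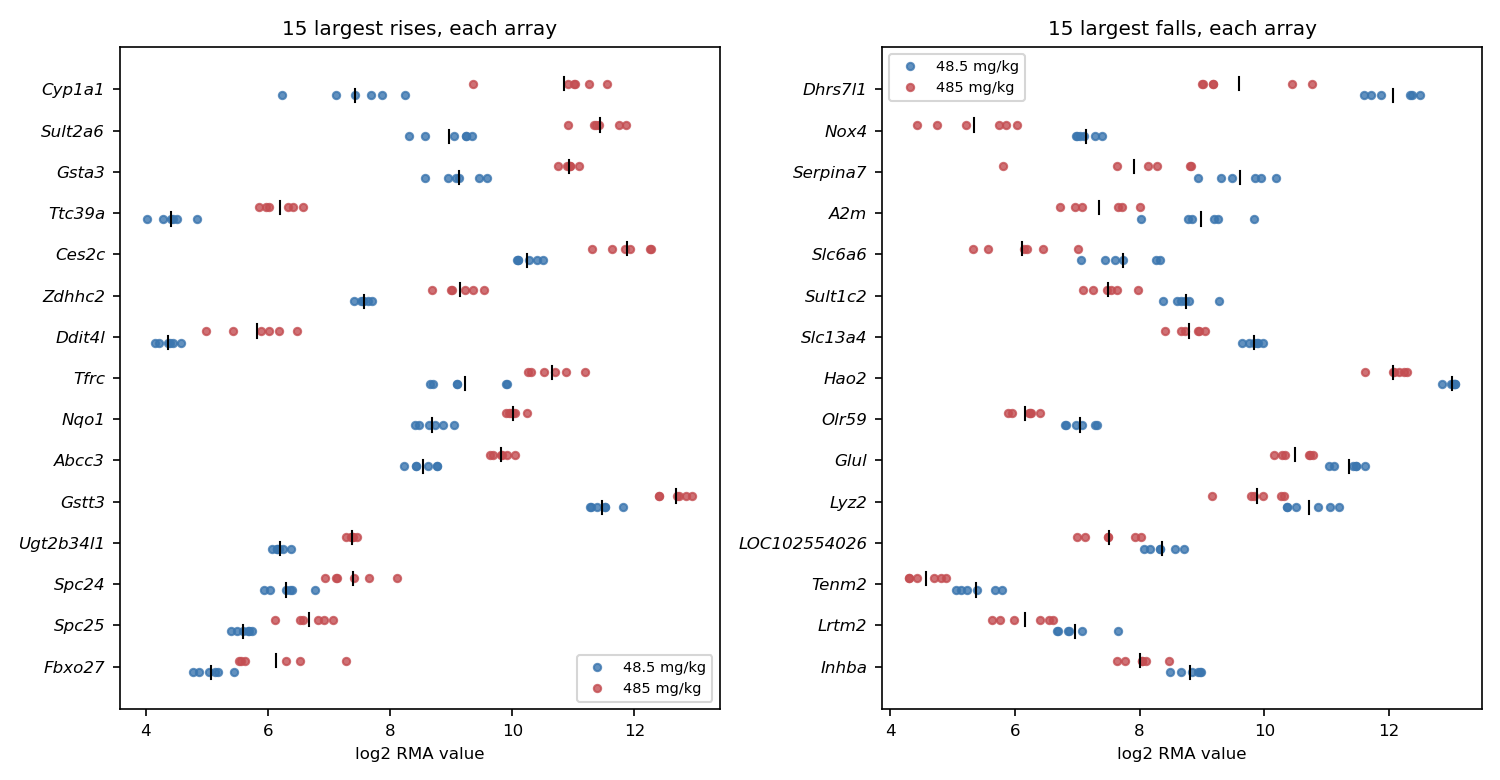
Log2 RMA value (x axis) of the 15 genes with the largest rises (left) and the 15 with the largest falls (right) among called genes whose groups do not overlap, 1 point per array, blue for 48.5 and red for 485 mg/kg, with a black bar at each mean. Cyp1a1 has 1 red point (485 mg/kg replicate 1, 9.36) apart from the others, and Ugt2b34l1 shows the tightest groups.

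Of 19 measured genes of heme synthesis, heme breakdown and P450 partners 6 rose and 0 fell, and the median was 0.18. The called genes act in iron uptake, heme breakdown, heme or porphyrin binding and electron transfer, and none of them in synthesis. The transferrin receptor Tfrc, which brings iron into cells, read 8.65, 9.10 and 9.91 at 48.5 mg/kg and 10.26, 10.61 and 11.19 at 485 mg/kg. All arrays of the higher dose were above those of the lower, the difference was 1.42 ± 0.22 (2.67-fold, adjusted p = 0.0027), and the gene's other probe set rose by 1.53. Hmox1, the heme oxygenase, had means of 8.75 in vehicle and 8.63 at 4.85 mg/kg and went from 8.35, 8.60 and 8.73 to 9.24, 9.44 and 9.61. Its difference was 0.85 ± 0.08 (1.80-fold, adjusted p = 4.99e-05) with no overlap. Tspo, a mitochondrial outer membrane protein that binds porphyrins, rose by 0.63 ± 0.10, the biliverdin reductase Blvrb by 0.45 ± 0.06, the heme-binding Pgrmc1 by 0.22 and cytochrome b5 (Cyb5a), which passes electrons to P450s, by 0.19. The call of Cyb5a was lost with any 1 of the 12 arrays left out (adjusted p up to 0.0933) and that of Pgrmc1 without 48.5 mg/kg replicate 2 or 3 or 485 mg/kg replicate 3 (up to 0.0661). None of the 7 measured synthesis enzymes was called. Alas1, the rate-limiting one, stood highest at 0.56 ± 0.21 (95% interval 0.11 to 1.02, limma adjusted p = 0.204), and the others ran from Alad at -0.09 to Fech at 0.18. Alas1 values spread widely, from 11.57 to 12.61 and from 11.72 to 13.20, and the gene was called when 485 mg/kg replicate 1 was left out (adjusted p = 0.0317).

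Of 30 measured genes of the proteasome, the protease that degrades ubiquitin-tagged proteins, 20 rose and 0 fell, by small amounts. The median over all 30 was 0.28, and the 10 not called had positive differences too. Psma1, a subunit of the core's outer ring, read 10.81, 11.10 and 11.21 at 48.5 mg/kg and 11.37, 11.51 and 11.62 at 485 mg/kg, a difference of 0.44 ± 0.07 (1.36-fold, adjusted p = 0.0035). Psmb3, of the core's inner ring, rose by 0.38 ± 0.06, Psmd14, the deubiquitinase of the lid, by 0.37 ± 0.06, and Psmc5, an ATPase of the base, by 0.35 ± 0.06. In each of these 4 genes the groups did not overlap. Core, base and lid were all among the called: 10 core subunits, 4 base ATPases and 6 other regulatory subunits. The smallest difference was that of Psma3 (0.02), and Psmc3 (0.15) and Vcp, the segregase that feeds proteins to the proteasome (0.16), were not called. The interferon-induced core subunits Psmb8 (0.31), Psmb9 (0.29) and Psmb10 (0.29), kept in another list, were not called. In other fits, 12 members were called without 485 mg/kg replicate 2, 0 against a minimum change of 1.5-fold, and 6 with the replicate number as a block.

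Cell cycle genes rose in part. Of 30 measured, 27 had a positive difference, 6 were called higher and 0 lower, and the median was 0.27. Cdk1, the mitotic kinase, rose by 0.92 ± 0.21 (adjusted p = 0.0244), from 5.59, 5.99 and 6.86 to 6.36, 7.02 and 7.46 with overlapping groups, and cyclin A2 (Ccna2) by 0.93 ± 0.24 at a median of 4.48, below the array median. Ube2c, Racgap1, Prc1 and Aurka rose by 0.38 to 0.55. Racgap1 (0.52) lost its call in 10 of the 12 fits that left out 1 array (all but those without 485 mg/kg replicate 4 or 6, adjusted p up to 0.111) and in the 36-array fit, and its other probe set stood at 0.17 (adjusted p = 0.434). The call of Cdk1 was lost in 6 and that of Ccna2 in 10 of the 12 fits that left out 1 array (adjusted p up to 0.0594 and 0.112), and those of Ube2c, Prc1 and Aurka in 9, 8 and 7 (up to 0.117, 0.0893 and 0.076). The replication helicase subunits Mcm2 to Mcm7 (-0.05 to 0.20), Pcna (0.13) and Tyms (-0.06) were not called, nor was cyclin D1 (Ccnd1, -0.63, adjusted p = 0.0835). Leaving out 1 array gave between 0 and 9 calls, with 0 without 48.5 mg/kg replicate 1, 2, 5 or 6 or 485 mg/kg replicate 1 or 3, 2 without 48.5 mg/kg replicate 4 or 485 mg/kg replicate 5, and 9 without 485 mg/kg replicate 4. Fitting all 36 arrays called 11.

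Spc24 and Spc25 encode a dimer of the NDC80 complex that links chromosomes to the spindle. Spc24 rose by 1.10 ± 0.18 (2.14-fold, adjusted p = 0.00353), from 5.93, 6.33 and 6.77 to 6.94, 7.27 and 8.11, and Spc25 by 1.07 ± 0.13 (2.10-fold, adjusted p = 0.000293), from 5.39, 5.64 and 5.74 to 6.12, 6.69 and 7.07. Neither gene's groups overlapped, and the vehicle means were 6.12 and 5.29.

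Gadd45b, a stress-induced growth arrest gene, rose by 1.25 ± 0.27 (2.38-fold, adjusted p = 0.0188), from 5.82, 6.15 and 7.35 to 6.78, 7.61 and 8.43, with overlap of the groups, and was not called with the ordinary test or with trend and robust moderation. Of 15 measured p53 and growth arrest genes 2 rose, Gadd45b and Mdm2 (0.59 ± 0.14, adjusted p = 0.0325), and the median was -0.02. The Mdm2 call was lost when any 1 of 8 arrays was left out: 48.5 mg/kg replicates 2 to 6 or 485 mg/kg replicate 2, 3 or 5 (adjusted p 0.0201 to 0.0817 over all 12).

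Of the 15 largest rises among called genes whose groups do not overlap, 4 belong to none of these groups. Ttc39a, a tetratricopeptide repeat protein, went from 4.02, 4.43 and 4.84 to 5.85, 6.18 and 6.57 (1.78 ± 0.14, adjusted p = 5.37e-06). Zdhhc2, a protein palmitoyltransferase, went from 7.41, 7.55 and 7.71 to 8.68, 9.13 and 9.54 (1.57 ± 0.11, adjusted p = 5.37e-06). Ddit4l, an inhibitor of mTOR signalling, went from 4.15, 4.38 and 4.58 to 4.99, 5.95 and 6.47 (1.47 ± 0.19, adjusted p = 0.000561). The groups of all 3 were apart, which their choice required, and those of Ttc39a and Ddit4l started below the array median. Fbxo27, an F-box protein, rose by 1.06 ± 0.25 (adjusted p = 0.0319) but lost its call when any 1 of 7 arrays was left out (48.5 mg/kg replicates 1, 3, 4, 5 and 6, 485 mg/kg replicates 3 and 6; adjusted p 0.0196 to 0.076).

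**Figure D3:**
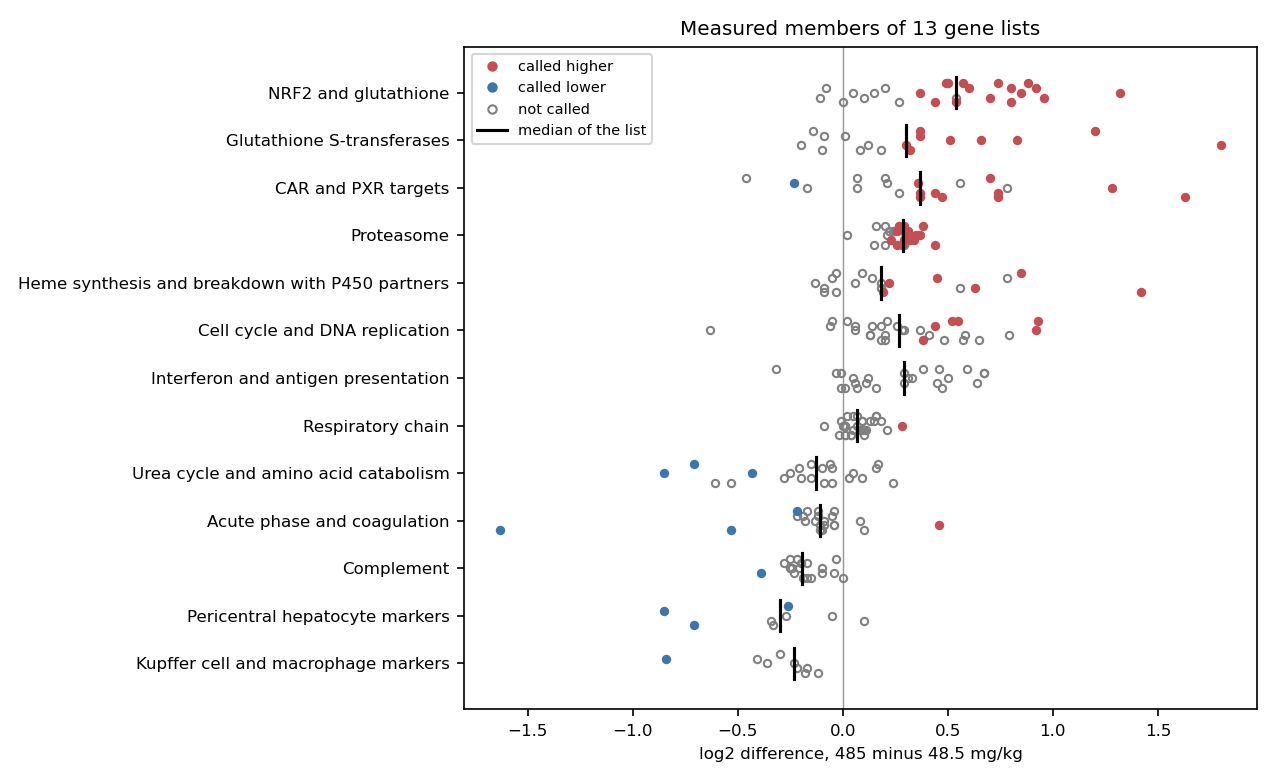
Log2 difference between 485 and 48.5 mg/kg (x axis) of every measured member of 13 gene lists (rows), filled red where called higher, filled blue where called lower and open where not called, with a black bar at the median of the list. The proteasome row forms a narrow band with a median of 0.28, while the NRF2 row spreads from -0.11 to 1.32.

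The largest fall was that of Dhrs7l1, annotated as a short-chain dehydrogenase of the DHRS7 family. It read 11.59, 12.10 and 12.50 at 48.5 mg/kg and 9.0, 9.17 and 10.76 at 485 mg/kg, a difference of -2.47 ± 0.30 (5.52-fold lower, adjusted p = 0.000291). All 6 arrays of the higher dose were below the other group, 4 of them between 9.0 and 9.18, with replicates 5 and 2 at 10.45 and 10.76. Means in vehicle and at 4.85 mg/kg, 12.41 and 12.38, lay within the range at 48.5 mg/kg. Nox4, an oxidase that makes hydrogen peroxide, fell by 1.79 ± 0.23 (3.46-fold, adjusted p = 0.000437), from 6.98, 7.07 and 7.39 to 4.43, 5.48 and 6.04. Its means were 7.34 in vehicle and 7.47 at 4.85 mg/kg. Slc6a6, the taurine transporter, fell by 1.62 ± 0.26 (adjusted p = 0.0033), from 7.06, 7.67 and 8.32 to 5.33, 6.17 and 7.02, and its other probe set by 1.15. Hao2, a peroxisomal oxidase of 2-hydroxy acids, fell by 0.93 ± 0.10 (adjusted p = 8.14e-05), from 12.84, 13.04 and 13.05 to 11.61, 12.12 and 12.28. Inhba, the beta A subunit of activin, fell by 0.80 ± 0.12 and its other probe set by 0.46. None of these genes' groups overlapped. Olr59, annotated as an olfactory receptor, fell by 0.88 ± 0.11, and LOC102554026, an uncharacterised locus, by 0.84 ± 0.16. Tenm2, a teneurin, fell by 0.81 ± 0.14 on its brightest probe set, at medians of 5.31 and 4.57, while its other 2 probe sets stood at 0.05 and -0.03 and were not called. Lrtm2, a membrane protein with leucine-rich repeats, fell by 0.81 ± 0.19 (adjusted p = 0.0312), and the call was lost without any 1 of 48.5 mg/kg replicates 5 and 6 and 485 mg/kg replicates 1, 3 and 4 (adjusted p 0.0234 to 0.0797).

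Among secreted liver proteins, 18.2% of the measured acute phase and coagulation genes were called. The shares were 17.6% for apolipoproteins and lipid secretion and 5.56% for complement, beside 4.21% over all represented genes. Serpina7, the thyroxine-binding globulin of plasma, read 8.93, 9.66 and 10.18 at 48.5 mg/kg and 5.81, 8.21 and 8.83 at 485 mg/kg, a difference of -1.69 ± 0.41 (3.24-fold lower, adjusted p = 0.0354). The groups were just apart, with 485 mg/kg replicate 3 far below the rest, and the call was lost when any 1 of 8 arrays was left out (48.5 mg/kg replicates 2 to 6, 485 mg/kg replicates 1, 2 and 6; adjusted p 0.0128 to 0.0785). Of 15 measured genes of thyroid hormone transport and response, 1 rose (Me1) and 1 fell (Serpina7), the deiodinase Dio1 stood at -0.22 ± 0.09 (adjusted p = 0.249) and the thyroid-responsive Thrsp at 0.16 ± 0.21 (adjusted p = 0.81). A2m, the protease trap alpha-2-macroglobulin, fell by 1.63 ± 0.26 (3.09-fold, adjusted p = 0.0033), from 8.02, 9.01 and 9.83 to 6.72, 7.37 and 8.00. Its highest array at 485 mg/kg lay just under the lowest at 48.5 mg/kg. Of 22 acute phase and coagulation genes, 3 fell, A2m, Serpina3n (-0.53 ± 0.06) and Serpina1 (-0.22 ± 0.05), and 1 rose, the acid glycoprotein Orm1 (0.46 ± 0.09); the median was -0.11. Serpina3n moved from 12.52, 12.64 and 12.76 to 12.02, 12.10 and 12.20 (adjusted p = 8.14e-05), and Orm1, opposite to it, from 12.84, 13.02 and 13.35 to 13.36, 13.49 and 13.72. None of 18 measured complement genes had a positive difference, but only C4bpb passed the test (-0.39 ± 0.08), and the median was -0.19. Of 17 apolipoprotein and lipid secretion genes, hepatic lipase Lipc (-0.45 ± 0.06) and Lcat (-0.26 ± 0.05) fell and Mttp, which loads lipid on apolipoprotein B, rose (0.25 ± 0.05). Albumin stood at 15.05 in both groups, the top of the scale.

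Growth hormone signalling genes and male-predominant genes showed 3 falls and 0 rises among 16 measured, with a median of -0.18. The growth hormone receptor Ghr fell by 0.45 ± 0.09, from 11.84, 11.91 and 12.07 to 11.11, 11.48 and 11.76, though its other probe set (-0.22) was not called. Igfbp2 fell by 0.77 ± 0.15, a call lost in the 36-array fit. The male-specific P450 Cyp2c13 fell by 0.24 ± 0.05 and lost its call without 48.5 mg/kg replicate 4 or 485 mg/kg replicate 1 or 2 (adjusted p 0.0276 to 0.059). Cyp2c11, the other major male P450, stood at -0.20 ± 0.06 (95% interval -0.33 to -0.07, adjusted p = 0.109) and was called with trend and robust moderation.

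In intermediary metabolism the share of genes called ran from 0% (cholesterol synthesis and gluconeogenesis) to 14.3% (the fatty acid oxidation list). Over all represented genes the share was 4.21%. Of 21 genes of fatty acid oxidation and PPARA response, the receptor that senses fatty acids, 3 rose: Acot2 (0.60 ± 0.11), Ehhadh (0.53 ± 0.11) and Cpt2 (0.40 ± 0.09), with a list median of 0.07. Ehhadh, the peroxisomal bifunctional enzyme, had means of 11.25 in vehicle and 11.47 at 4.85 mg/kg, above the median of 10.98 at 48.5 mg/kg, and reached a median of 11.59 at 485 mg/kg. Of 19 fatty acid synthesis genes 2 rose, Me1 and the elongase Elovl6 (1.29 ± 0.33, adjusted p = 0.047). Elovl6 lost its call without any 1 of 9 arrays (48.5 mg/kg replicates 1 to 5, 485 mg/kg replicates 1, 3, 5 and 6; adjusted p 0.0122 to 0.104), with values at 485 mg/kg from 8.07 to 10.63. The desaturase Scd spread over 7.84 to 10.86 at 485 mg/kg and was not called (0.68 ± 0.46, adjusted p = 0.558). Of 19 genes of cholesterol synthesis and 16 of gluconeogenesis 0 were called, with medians of -0.03 and -0.14. Of 19 bile acid genes only Abcb4 was called, and Cyp7a1, which opens the main route from cholesterol to bile acids, differed by -0.39 ± 0.24 (95% interval -0.90 to 0.11, adjusted p = 0.49). Of 22 urea cycle and amino acid genes 3 fell, Glul, Oat and Kynu (-0.43 ± 0.09), with a median of -0.12. Of 29 respiratory chain genes 1 rose, Atp5f1c (0.28 ± 0.06), with a median of 0.07. The calls of the chaperones Hsp90ab1 (0.25) and Hspd1 (0.22), 2 of 15 heat shock genes, and of the amino acid transporter Slc7a5 (0.36), 1 of 23 ATF4 genes, were each lost in 10 of the 12 fits that left out 1 array (adjusted p up to 0.0828, 0.104 and 0.0855). They were kept without 485 mg/kg replicate 1 or 4 (Hsp90ab1), 48.5 mg/kg replicate 3 or 485 mg/kg replicate 1 (Hspd1) and 48.5 mg/kg replicate 4 or 485 mg/kg replicate 1 (Slc7a5). The clock repressor Nr1d1 fell by 0.51 ± 0.07 (adjusted p = 0.000518), 1 of 17 clock genes. None of 25 endoplasmic reticulum folding genes, 15 ribosomal protein genes or 24 nuclear receptor genes was called, with medians of 0.04, -0.03 and -0.04. Panel genes Lox, the collagen crosslinker (-0.53 ± 0.30, adjusted p = 0.45), and Stac3 (-1.19 ± 0.32, adjusted p = 0.0606) were not called; Stac3 was called without 48.5 mg/kg replicate 2 or 5 or 485 mg/kg replicate 3 (adjusted p 0.028 to 0.121 over the 12).

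The liver identity of the samples was checked with 8 hepatocyte markers, none below the array median; 1 fell (Serpina1), and the median difference was -0.15. Glutamine synthetase (Glul), made only in the last ring of hepatocytes around the central vein, fell by 0.85 ± 0.13 (1.81-fold, adjusted p = 0.00176), from 11.04, 11.44 and 11.62 to 10.15, 10.53 and 10.78, and its 3 probe sets were all called. With it, 2 other pericentral markers of 8 measured fell, Oat (-0.71 ± 0.17) and Lgr5 (-0.26 ± 0.07, at medians of 3.82 and 3.51, below the array median), while Cyp2e1 (-0.05), Cyp1a2, Slc1a2 (-0.34), Axin2 (-0.33) and Tbx3 (-0.27) were not called. The list's median was -0.30, and its summed log2 level ran from 70.4 to 73.6 at 48.5 mg/kg and from 68.1 to 70.9 at 485 mg/kg. The calls of Oat and Lgr5 were lost when any 1 of 8 and 10 arrays was left out (adjusted p 0.0102 to 0.0869 and 0.0198 to 0.112). They were kept without 48.5 mg/kg replicate 4 or 5 or 485 mg/kg replicate 4 or 6 (Oat) and without 48.5 mg/kg replicate 4 or 485 mg/kg replicate 2 (Lgr5). The 10 periportal markers had a median of -0.22 with 0 called.

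Lyz2, the lysozyme of macrophages, fell by 0.84 ± 0.19 (adjusted p = 0.0259), from 10.36, 10.68 and 11.19 to 9.16, 9.90 and 10.31, and lost its call without 48.5 mg/kg replicate 3, 5 or 6 or 485 mg/kg replicate 2 (adjusted p 0.0184 to 0.0581), and also in the 36-array fit, with the ordinary test and with trend and robust moderation. It was the only one of 9 Kupffer cell and macrophage markers called; all 9 differences were negative, with a median of -0.23, and the summed log2 level ran from 77.1 to 83.5 and from 75.2 to 80.6. In RNA of whole tissue, fewer cells of a type and less RNA per cell cannot be told apart. Of 6 erythroid markers, 4 were below the array median in both groups, Car1 among them at means of 4.14 and 3.83. Hbb (-0.68 ± 0.16) and Car1 (-0.31 ± 0.07) fell, calls lost when any 1 of 9 and 7 arrays was left out (adjusted p 0.0098 to 0.0797 and 0.023 to 0.0678). The Hbb call was kept without 48.5 mg/kg replicate 1 or 485 mg/kg replicate 2 or 4, that of Car1 without 48.5 mg/kg replicate 3, 4 or 6 or 485 mg/kg replicate 5 or 6, and the summed log2 level ran from 37.1 to 39.6 and from 35.7 to 37.6. No marker of neutrophils (6 measured), T and NK cells (13), B cells (4), sinusoidal endothelium (9), stellate cells and matrix (14), bile ducts (6) or adipose, muscle and pancreas (12) was called. In that order, 3, 11, 2, 1, 1, 3 and 10 of them were below the array median in both groups. The part of these markers in the falls described above was not tested.

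Interferon and antigen presentation genes spread widely between arrays of the same dose. Of 24 measured, 20 had a positive difference with a median of 0.29, and 0 were called (limma) although Mx2 and Usp18 stood at 0.67, Isg15 at 0.64 and Oas1a at 0.59. The median of the list relative to the mean of the 12 arrays ran from -0.48 (replicate 3) to 0.14 at 48.5 mg/kg and from -0.42 (replicate 6) to 0.80 (replicate 4) at 485 mg/kg.

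Some calls depended on how the spread of a gene was estimated. Of the 81 named genes that were called, 20 were not called with the ordinary test: Gadd45b, Fbxo27, Serpina7, LOC102554026, Lyz2, Lrtm2, Cpt2, Abcg8, Abcg5, Igfbp2, Elovl6, Oat, Slc7a5, Ccna2, Cdk1, Ube2c, Racgap1, Mdm2, Lgr5 and Hbb. With trend and robust moderation 12 were not called, all of them among these 20: Gadd45b, Fbxo27, Serpina7, Lyz2, Lrtm2, Abcg8, Abcg5, Elovl6, Oat, Ccna2, Cdk1 and Hbb. The fit of all 36 arrays took the call from 6: Lyz2, Lrtm2, Igfbp2, Racgap1, Lgr5 and Car1.

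**Figure D4:**
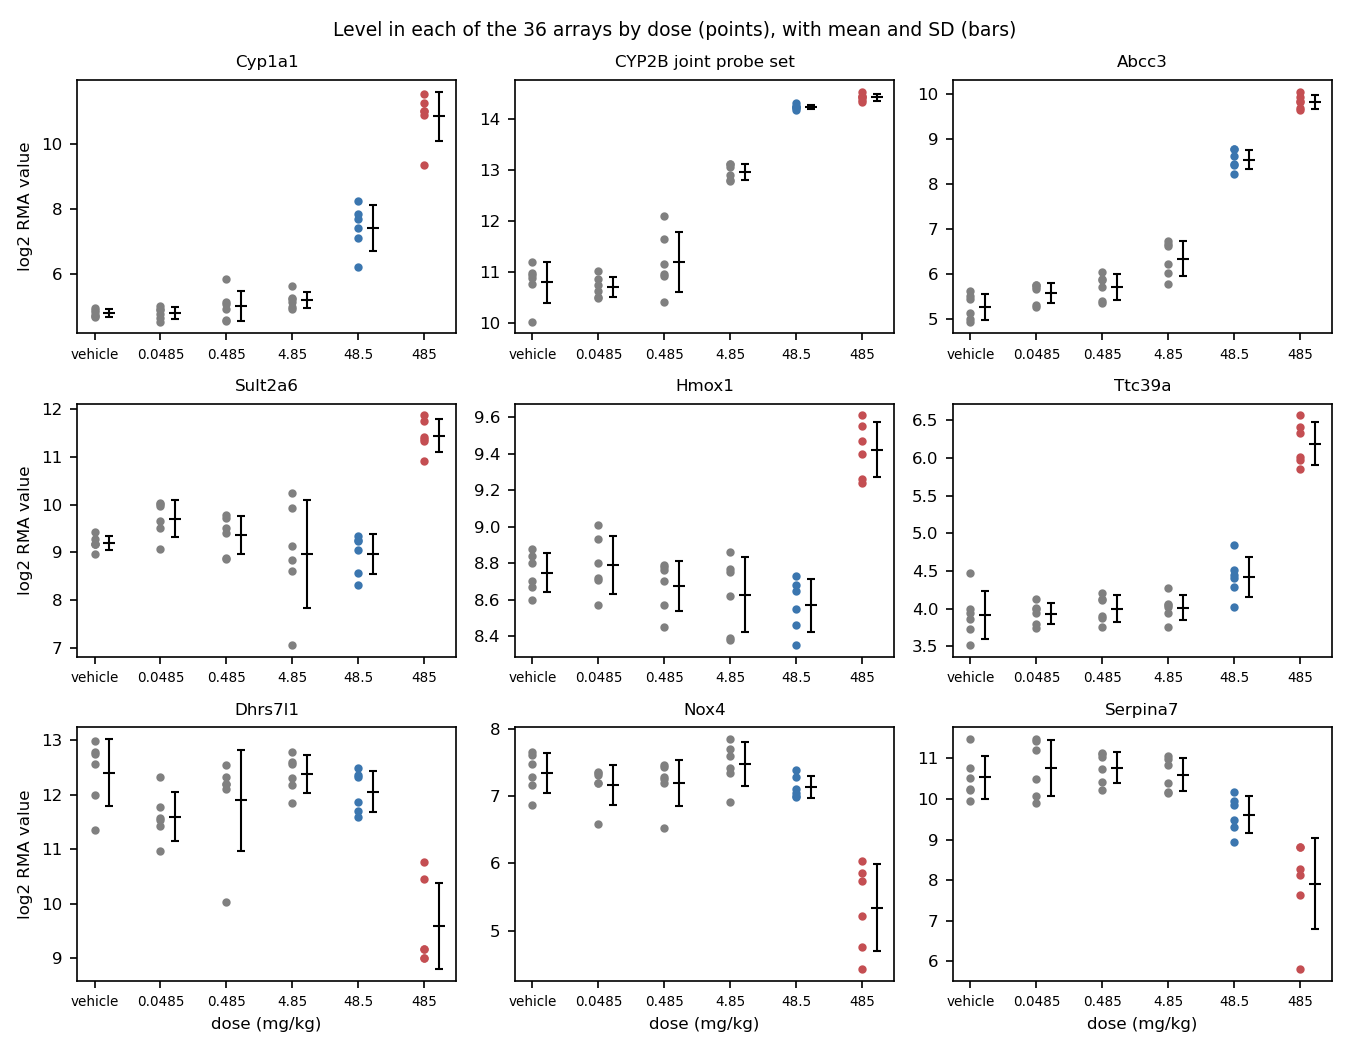
Log2 RMA value (y axis) in each of the 36 arrays by dose in mg/kg (x axis, equally spaced) for 9 genes or probe sets, with mean and SD bars beside the points, blue for 48.5 and red for 485 mg/kg. The CYP2B joint probe set goes from a median of 14.25 to 14.44 over the last step, Sult2a6 from 9.14 to 11.40 and Dhrs7l1 from 12.10 to 9.17.

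The last step was also set beside the step before it. The means of Cyp1a1, Abcc3, Ces2c, Gsta3 and Nqo1 differed between 4.85 and 48.5 mg/kg by 2.22, 2.20, 1.83, 1.25 and 0.92, and in the last step by 3.42, 1.28, 1.63, 1.80 and 1.32. Those of Sult2a6, Ddit4l and Hmox1 differed by -0.01, 0.10 and -0.06 and then by 2.48, 1.47 and 0.85. Both steps share the arrays of 48.5 mg/kg. In the test of their difference on 18 arrays none of these 8 genes passed (adjusted p 0.0806 for Hmox1, 0.176 for Ddit4l, 0.272 for Sult2a6, 0.315 for Abcc3 and 0.608 for Cyp1a1). With all 36 arrays in the fit, Hmox1 (adjusted p = 0.00462), Ddit4l (0.00491), Ttc39a (0.00423), Ehhadh (0.00253) and Hao2 (0.00491) were among the 16 called and Sult2a6 (0.0541) was not.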

How the data were processed

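The authors deposited a table of log2 expression with a row per probe set and a column per array; RMA and the R package affy (versions not given) made it, per the submitters' processing notes. RMA corrects background, equalises the arrays' distributions by quantiles and summarises each probe set, so a value is relative and not an absolute amount. Microarrays have no read depth; precision is limited by how many there are, 6 per dose. RNA had an integrity number of at least 7.0, per the labels.

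The 6 arrays of 485 mg/kg were compared with the 6 of 48.5 mg/kg in R 4.3.3 with limma 3.58.1, by lmFit and eBayes on these 12 arrays alone (10 residual and 5.15 prior degrees of freedom), two-sided, with Benjamini-Hochberg adjustment over 31042 probe sets, no covariate and no filter on level. The study's design text names R/maanova at a false discovery rate under 5% for comparisons with vehicle; it was replaced here by the unmoderated (ordinary) test of this model as an alternative. Of the probe sets tested, the platform annotation assigned 20826 to 1 gene and 436 to several, and 9780 were unnamed here; 20758 matched RefSeq genes of GRCr8 by identifier.

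Named genes are a panel of 18 genes and the CYP2B joint probe set, the 15 largest rises and 15 largest falls among called genes whose groups do not overlap, and up to 4 called members with the largest difference from each of 42 lists (30 pathway lists, 12 lists of cell type markers). The panel, lists and comparison were chosen with earlier results of these data known, so lists are described by counts and medians, not tested. Other list members are given as values.

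Alternatives were all 36 arrays, quantile normalization, median centring, a block for the replicate number, dropping all but the brighter 15521 probe sets, the ordinary test, trend and robust moderation, array weights, a minimum change of 1.5-fold, an adjusted p of 0.01, averaging the probe sets of a gene, and leaving out each array in turn. Same-numbered arrays of the 2 doses did not deviate together (correlations -0.07 to 0.15 over probe sets; 0 of 6 were each other's best match), so the numbers were not taken as pairs. The fit was tested on simulated data in which the changed probe sets were known. Scanner files were not analysed here.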

Additional observations from a re-analysis of the deposited data

Results flagged for a closer look

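Among 186 groups of 6 arrays (the named genes at both doses), 11 held a value that stood farther from the rest than Dixon's 95% limit for the gap over the range of the group. That is 5.91%, and chance flags about 1 in 20.

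Cyp1a1, the largest rise, had a low array at 485 mg/kg: replicate 1 at 9.36, the others from 10.91 to 11.55. The sterol exporter subunits Abcg8 and Abcg5 were both low in 48.5 mg/kg replicate 5, at 4.95 (others 6.07 to 6.52) and 7.28 (others 8.16 to 8.65). The oxidase Hao2 had a low array in each group, 12.84 in 48.5 mg/kg replicate 2 (others 12.99 to 13.05) and 11.61 in 485 mg/kg replicate 6 (others 12.06 to 12.28). The thioesterase Acot2 was high in 485 mg/kg replicate 4, at 10.42 (others 9.84 to 10.04). At 48.5 mg/kg, Cyp1b1 was high in replicate 3 at 5.46, Cyp2c13 high in replicate 4 at 13.88, Kynu high in replicate 1 at 12.12, C4bpb low in replicate 3 at 12.1 and Mttp low in replicate 6 at 11.24; the remaining arrays of these 5 groups spanned 0.04 to 0.14.

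The last dose step of the CYP2B joint probe set was smaller than the step before it by a test of the difference itself: -1.08 ± 0.11 (SE; limma, 18 arrays, adjusted p = 0.000152, but 0.183 with all 36 arrays in the fit).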

How the results depend on the processing

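No result reversed. The 880 calls (453 higher, 427 lower) became 1509 (792 and 717) with all 36 arrays in the fit, 307 (193 and 114) at an adjusted p of 0.01 and 11 (9 and 2) against a minimum change of 1.5-fold; the ordinary test called 272 lower. With 1 array left out the total was 567 to 944, higher 318 to 451 and lower 249 to 508, and lower calls were 249 without 485 mg/kg replicate 3, 265 without 48.5 mg/kg replicate 2 and 283 without 485 mg/kg replicate 2. With the replicate number as a block, which the check of pairing did not bear out, 648 probe sets were called, and the block took the call from 15 of the 81 named genes called. Members called higher with 1 array left out numbered 9 to 12 for CAR and PXR targets, 16 to 16 for NRF2, 8 to 9 for glutathione S-transferases, 12 to 19 for the proteasome and 0 to 9 for the cell cycle. Against 1.5-fold they numbered 2, 1, 1, 0 and 0. Proteasome calls were 6 with the block and 5 at an adjusted p of 0.01; cell cycle calls were 11 with all 36 arrays and 0 with the ordinary test or at an adjusted p of 0.01. The test of unequal dose steps called 16 probe sets with all 36 arrays and 1 to 9 with 1 array left out. Of the 81, 62 were called in all 12 fits that left out 1 array; 2 of the 12 named but not called were called in at least 1 (Alas1, Stac3). Over the other settings, stricter thresholds included, 10 of the 81 were called in every one and 71 lost the call in at least 1: 71 against 1.5-fold, 31 at an adjusted p of 0.01, 20 with the ordinary test, 15 with the block, 12 with trend and robust moderation, 6 with all 36 arrays, 5 with the mean of probe sets, 3 with median centring, 2 with quantile normalization and 0 with the filter or array weights. In at least 1 of these settings 5 of the 12 were called: the CYP2B joint probe set, Ugt2b1, Cyp2c11, Stac3 and Cyp7a1, the last 2 with the block. The cause of these shifts was not tested, apart from the stricter thresholds.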

Other observations

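Of 9 genes outside the lists that were looked up for iron and heme handling, 5 were called higher, 1 lower and 3 not at all. The share called over all represented genes was 4.21%, but these were picked after values had been seen. They are single genes and not a tested group. Slc48a1, a heme transporter, rose from 7.43, 7.56 and 7.78 (lowest, median and highest of 6 arrays) at 48.5 mg/kg to 8.12, 8.20 and 8.24 at 485 mg/kg, a difference of 0.61 ± 0.06 (SE; limma, adjusted p = 6.84e-05). Aco1, the cytosolic aconitase that doubles as an iron-sensing RNA-binding protein, rose by 0.53 ± 0.06, from 10.01, 10.05 and 10.27 to 10.54, 10.63 and 10.72 (adjusted p = 0.000289). The heme-binding protein Hebp1 rose by 0.42 ± 0.08 and the mitochondrial iron importer Slc25a37 by 0.42 ± 0.09, while Steap3, an endosomal ferrireductase, fell by 0.59 ± 0.13 (adjusted p = 0.0181). The iron exporter Slc40a1 (-0.11), the iron hormone Hamp (-0.05) and Ireb2 (-0.12), the other iron-sensing RNA-binding protein, were not called. Nfe2l1, counted among the 5 called higher, is a transcription factor known to drive proteasome genes. Its rise was 0.28 ± 0.06 (limma, adjusted p = 0.0302), a call lost in 6 of the 12 fits that left out 1 array. The call of Slc25a37 was lost in 3.

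Further single genes chosen the same way were called lower or higher, and not all of those looked up are given here. Gnmt, which methylates glycine, went from 11.25, 11.60 and 11.80 to 10.50, 10.74 and 11.17 (-0.77 ± 0.12, adjusted p = 0.00192), with a vehicle mean of 12.19. Agxt, which converts glyoxylate to glycine, fell by 0.69 ± 0.12 and Pemt, which methylates phosphatidylethanolamine, by 0.51 ± 0.09, while Bhmt (-0.40), Mat1a (-0.08) and Sardh (-0.02) were not called. The glycerol channel Aqp9 fell by 0.58 ± 0.10 and glycerol kinase Gk by 0.75 ± 0.10, both without overlap of the groups. The mitochondrial superoxide dismutase Sod2 rose by 0.58 ± 0.07 and the mitochondrial peroxiredoxin Prdx3 by 0.46 ± 0.06, and Pir, an iron-binding nuclear protein, by 0.99 ± 0.10, from 8.08, 8.16 and 8.40 to 8.96, 9.16 and 9.60.

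Genes were ranked by their SD among the arrays of 485 mg/kg alone, a choice that favours a larger spread at that dose. The median SD over all probe sets was 0.134 at 485 and 0.131 at 48.5 mg/kg. Some of the genes ranked highest spread far more at 485 than at 48.5 mg/kg and were not called. Akr1b7, an aldose reductase relative, ran from 3.58 (replicate 3) to 9.18 (replicate 6) at 485 mg/kg (SD 2.36) and from 3.13 to 3.92 at 48.5 mg/kg (SD 0.27, adjusted p = 0.0868). Igfbp1, an insulin-suppressed binding protein, had SDs of 1.64 and 0.53, and the cadherin Cdh17 1.61 and 0.55. Onecut1 (1.14 and 1.72) and Gadd45g (0.96 and 1.66), from the same ranking, spread less at 485 than at 48.5 mg/kg.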
